A study of Homo sapiens with 6 samples.

Results

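The regions described here were the distal H3K27ac peaks of SU-CCS-1 cells that were centred on an exon. Distal means that no base of the peak lay within 3000 bases of the start site of any transcript in GENCODE version 44, and centred on an exon means that the midpoint of the peak was an exonic base of any gene. Of the 30784 peaks of the deposited list, 11928 were distal and 515 of those met the rule (4.32% of distal peaks, 95% Wilson interval 3.97–4.70). They comprised 132 peaks centred on coding sequence, 253 centred on untranslated exon sequence and 130 centred on noncoding exons. A base counted as coding if it was coding in any transcript, stop codons included, otherwise as untranslated if it lay in an untranslated region of a coding transcript, and otherwise as noncoding. A further 7557 exon-centred peaks lay within the 3000 base limit and are not described here.

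SU-CCS-1 is a human line grown from clear cell sarcoma (CCS), a soft tissue tumor driven by the fusion EWSR1::ATF1 (EA1). Its labels give no treatment in this series. The 6 samples were 3 libraries from chromatin precipitated with an anti-H3K27ac antibody and 3 libraries of input chromatin, all from this 1 line. The authors deposited 1 merged list of broad peaks, which gives positions only and no height, p-value or value per replicate. No test across samples was therefore possible, peaks of 1 list are not replicates, and every interval below covers counting only. Of 23 melanocyte lineage genes, a class that CCS tumors are known to express, 17 had a peak within 3 kb of a start site in this list, a count to be read beside 63.4% of all protein-coding genes.

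H3K27ac, the acetylation of histone H3 at lysine 27, is carried by the nucleosomes that flank active promoters and enhancers. Enhancers are best known from introns and from the sequence between genes, but coding and untranslated exons can also hold transcription factor binding sites, and such exons serve as enhancers of their own or of a neighbouring gene. ATF1 belongs to the CREB family, whose full site is TGACGTCA and whose binding is reduced when the central CpG is methylated. AP1, the dimer of FOS and JUN proteins, binds TGAGTCA and binds at many enhancers. CpG islands, stretches rich in unmethylated CpG, mark most promoters and also occur inside the last exons of some developmental genes.

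The sequences that follow show coding centres dense in CpG and coding centres less dense in it. Each is the 30-base coding window with the most CpG within the central 500 bases of its peak, read 5′ to 3′ on the plus strand of hg38 with CpG in capitals. The first 6 are from the coding peaks with the highest CpG observed/expected ratio, chosen after the values were seen. The last 4 are a selection from the 8 widest coding peaks. Their central ratios were 0.559 in TMEM132B, 0.509 in LONRF2, 0.241 in NOL4L and 0.225 in PITPNB, so not all of them were poor in CpG.
APC2, chr19:1469380-1469409: CGcCGCGgcCGgccCGCGctgccCGcCGtc
FOXO6, chr1:41382460-41382489: gcCGcCGcCGcCGggcCGctgggCGcCGCG
SYNPO, chr5:150656690-150656719: CGCGgtCGgCGggCGcCGagaaccCGCGgc
GDF1, chr19:18868944-18868973: CGggttCGgCGtCGCGcCGCGgcCGggcca
KLHL31, chr6:53651900-53651929: CGgtgagcaCGtccaCGCGctcccCGCGCG
ZBTB7A, chr19:4054431-4054460: gCGtggCGgcCGgCGgggccacCGgCGgCG
TMEM132B, chr12:125650690-125650719: CGggaaagCGatgaCGaggaCGatgaggag
LONRF2, chr2:100284350-100284379: CGCGtgatgatgactaatatcCGtCGgatg
NOL4L, chr20:32474615-32474644: tggaggttctgCGggctcCGcatcctctCG
PITPNB, chr22:27873738-27873767: cttccagttgggtcccaaagggcctctctt

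The window of APC2, FOXO6, SYNPO and GDF1 held 8 CpG each, and the PITPNB window held 0. Over the whole central 500 bases, APC2 held 82 CpG, FOXO6 78 and GDF1 79, whereas TMEM132B held 20, NOL4L 12 and PITPNB 5.

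A further set shows motif sites at various distances from the midpoints, in which the capitals mark the motif on either strand. The FGF9 window holds the 1 TGACGTCA found in any of the 515 peaks, the IPO8 window holds the 1 AP1 site found in the central 400 bases of a coding peak, and the PDZD7 window holds the 1 AP1 site that lay in coding sequence. The UMPS, PACSIN2 and LINC03080 windows hold exonic AP1 sites close to a midpoint.
FGF9, chr13:21704785-21704814: gtcatattgttTGACGTCAgattctgtttg
IPO8, chr12:30631013-30631042: aaagttggagaTGACTCAaaggagccagat
PDZD7, chr10:101008675-101008704: gtaagggctgaTGAGTCAgagggtgagggc
UMPS, chr3:124745336-124745365: ctgttctttaaTGACTCAgaggaatgccta
PACSIN2, chr22:42869990-42870019: gcgggcactgcTGAGTCAcgtgaaacacag
LINC03080, chr15:99425369-99425398: agaacttcctcTGAGTCAcccacacccatg

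Exons made up 2.69% of the genome beyond 3 kb of a start site and held 4.32% of the distal midpoints. Untranslated exon sequence had the highest density, with 8.82 midpoints per Mb (exact Poisson 95% interval 7.77–9.98) over 28.68 Mb. Coding sequence followed with 8.395 per Mb (7.02–9.96) over 15.72 Mb, and noncoding exons had 6.27 per Mb (5.24–7.45) over 20.73 Mb. Introns held 5.97 per Mb (5.84–6.11) and intergenic sequence 3.47 (3.36–3.59). The coding and untranslated intervals lay above the intronic one, and the noncoding interval overlapped it.

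The density in exons differed between genes with and without an acetylated start. A midpoint inside overlapping genes counted with the genes that had a start peak if any of them did, whichever gene was its host. In protein-coding genes with a peak within 3 kb of a start site, coding sequence held 108 midpoints at 10.4 per Mb (8.54–12.6), untranslated sequence 10.9 (9.57–12.4), noncoding exons 8.46 (6.26–11.2) and introns 9.48 (9.24–9.72). The coding and noncoding intervals included the intronic density there. The untranslated interval lay above that density and overlapped only the upper end of the intronic interval. In protein-coding genes without such a peak, coding sequence held 24 midpoints at 4.50 per Mb (2.88–6.70), untranslated sequence 20 at 2.72 (1.66–4.21), noncoding exons 4 at 1.89 (0.514–4.83) and introns 1.51 (1.38–1.66). The coding interval in these genes lay above the intronic one, and the untranslated interval lay just above it. By distance from a start site, coding sequence held 9.32 midpoints per Mb (7.41–11.6) at 3 to 10 kb and 7.35 (5.38–9.81) at 10 to 50 kb, while introns held 7.80 (7.54–8.06) and 5.81 (5.62–5.99) over the same ranges. Untranslated sequence held 10.29 (8.785–11.97) and 7.34 (5.85–9.10). Noncoding exons held 7.01 (5.57–8.70) and 6.07 (4.44–8.09).

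**Figure D1:**
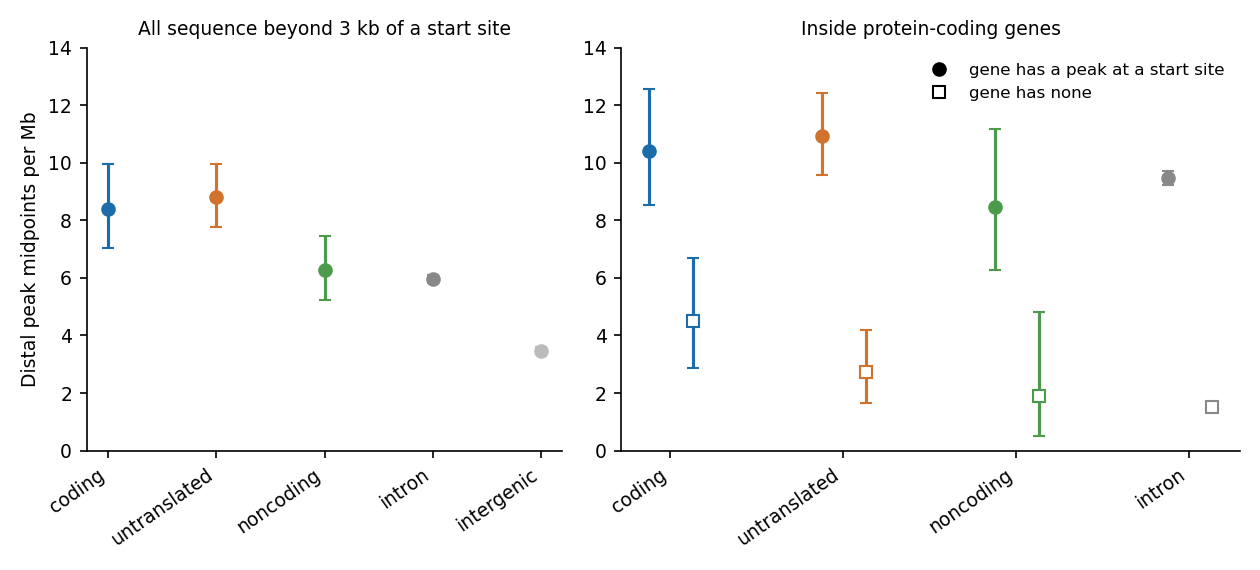
Midpoints of distal H3K27ac peaks per Mb of sequence more than 3 kb from a start site, in coding, untranslated and noncoding exons, introns and intergenic sequence (left) and inside protein-coding genes with (filled circles) and without (open squares) a peak at a start site (right). Bars are exact Poisson 95% intervals; in genes with a start peak the coding value of 10.4 and the intronic value of 9.48 lie close together, and in the remaining genes they are 4.50 and 1.51.

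The 3 groups sat differently on their exons. Of the 253 untranslated peaks, 244 were centred on a 3′ untranslated region and 9 on a 5′ one. The last exon held the midpoint of 239 of the 244 (98.0%), with a median exon length of 3732 bases, and 177 of them (72.5%) lay wholly within that exon. Coding peaks were centred on internal exons in 82 of 132 cases and on last exons in 50 (37.9%), beside 29.9% of all coding windows beyond 3 kb that lay in a last exon. Their exons were shorter than the peaks: the median coding-peak exon measured 457 bases (quartiles 157 and 1705), 71 of the 132 peaks (53.8%) covered the exon from end to end, and only 26 (19.7%) lay within it. Coding bases made up a median of 38.2% of a coding peak, and under 25% in 49 of them. Noncoding peaks were centred on a last exon in 104 of 130 cases and on the exon of a single-exon transcript in 9, and 51 lay within 1 exon. No member was centred on the first of several exons, which lies near a start site and is mostly removed by the rule.

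**Figure D2:**
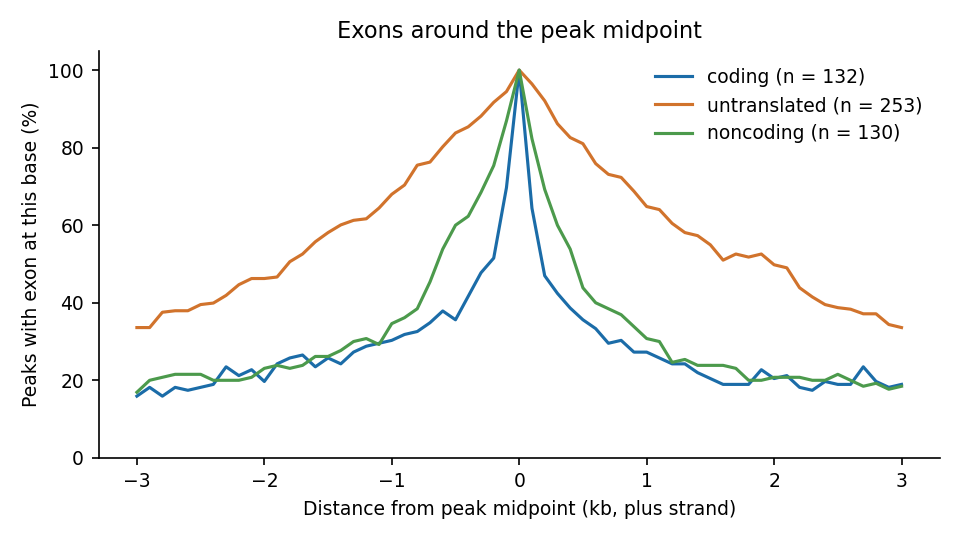
Percentage of peaks with an exonic base at each distance from the peak midpoint (kb, plus strand), for the 132 coding, 253 untranslated and 130 noncoding peaks. All curves are 100% at 0 by the rule; at 500 bases to either side, an exon was still present in 35.6% of the coding peaks, 81.0% or more of the untranslated peaks and 43.9% or more of the noncoding peaks.

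Widths differed little between the groups. The median width was 730 bases for coding peaks (95% order-statistic interval 620–880), 760 for untranslated (710–880) and 765 for noncoding peaks (680–920), beside 770 for distal peaks centred in introns and 790 for those between genes. Peaks of 2 kb or more made up 11 of 132 coding (8.33%), 31 of 253 untranslated (12.3%) and 15 of 130 noncoding peaks (11.5%), against 12.9% of all distal peaks. A broad call joins neighbouring enriched stretches, so a width follows signal and the joining rule as well as the extent of the mark.

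The widest coding peak, 4580 bases, lay in PITPNB, a phosphatidylinositol transfer protein gene, at chr22:27871461-27876040, and was centred on exon 8 of 12. That exon measured 78 bases, and coding sequence was 1.70% of the peak. The peak in NID1, which encodes the basement membrane protein nidogen, spanned 4560 bases around exon 8 of 20 with 8.55% coding sequence. NOL4L (3850 bases, exon 5 of 11) and TTC12 (2800 bases, exon 15 of 22) showed the same arrangement of a small internal exon at the centre of a wide peak, with 3.69% and 10.4% coding sequence. TMEM132B, a transmembrane protein gene, had a peak of 3510 bases around exon 7 of 9. The LONRF2 peak of 4210 bases was centred on the last exon. The ANKRD30B peak (2940 bases) was the only one of those named here in a gene without a peak at a start site, and coding sequence made up 33.1% of it.

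Peaks that consisted almost wholly of coding sequence were fewer and narrower. In 20 of the 132 coding peaks at least 90% of the bases were coding, and the 6 widest of them were in 5 genes. APC2, a brain-expressed relative of the tumor suppressor APC, held a peak of 1140 bases at chr19:1468941-1470080, all within an exon of 8090 bases. ADGRA2, an adhesion G protein-coupled receptor of endothelial Wnt signalling, held one of 980 bases that was 98.5% coding. The transcription repressor genes ZBTB7A (900 bases) and ZBTB2 (790 bases) held one each, wholly coding. The kinase anchor gene AKAP12 held 2, of 730 and 640 bases, in 1 exon of 5042 bases, 1010 bases apart. ZBTB2 and AKAP12 are near each other on chromosome 6, at 151365591 and 151349701.

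Base composition separated the coding peaks from the other groups. The median GC content was 57.8% in coding peaks (quartiles 47.6 and 66.7), 48.4% in untranslated and 48.7% in noncoding peaks, beside 47.4% in intronic and 48.3% in intergenic distal peaks and 58.2% in peaks at start sites. Coding sequence beyond 3 kb was itself richer in GC than the other classes, with quartiles of 37.2% and 54.2% in 500-base windows placed on every 50th base, against 34.4% and 47.0% in untranslated and 36.0% and 46.8% in noncoding exons, but the coding peak centres stood higher, at a median of 60.1%. A centre was called CpG-rich when its central 500 bases had at least 50% GC and a CpG observed/expected ratio above 0.6. By this rule 31 of 132 coding centres were CpG-rich (23.5%, 17.1–31.4), against 15 of 253 untranslated (5.93%, 3.63–9.55) and 8 of 130 noncoding centres (6.15%, 3.15–11.7). Among all distal peaks the share was 4.79%, and in windows placed along the exons it was 3.99% for coding, 0.776% for untranslated and 0.734% for noncoding sequence. In each of the 3 exon classes the interval of the peaks lay above the share of the windows. The same held for distal peaks centred in introns, at 2.96% (2.605–3.36) beside 0.362% of intronic windows. Intergenic distal peaks stood at 7.84% (7.01–8.75), above the untranslated and noncoding shares.

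The CpG-rich coding centres were mostly in last exons. Of 50 coding peaks centred on a last exon 25 were CpG-rich (95% interval 36.6–63.4%), and of 82 centred on an internal exon 6 were (7.32%, 3.40–15.1). The last-exon share of CpG-rich windows was 7.67%, and that of the remaining coding windows 2.42%. The CpG-rich coding centres had long exons, with a median of 1699 bases against 245 for the 101 coding peaks whose centre was not CpG-rich. They stood farther from other peaks, at a median gap of 11480 bases (quartiles 780 and 43520) against 1230 (560 and 8840). Their median width was 880 bases against 700.

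The CpG-rich coding centres lay in genes of varied function, and the examples here were named after their values were seen. SIM2 (590 bases, last exon of 11, 82.4% GC in the centre), OTP (1050 bases), EVX2 (520 bases), PRDM8 (430 bases) and FOXO6 (1210 bases) encode transcription regulators, and all 5 peaks were centred on the last exon. UNC13A, a presynaptic vesicle priming factor, held 1 of 1280 bases in exon 44 of 44, and MAGI2, a synaptic scaffold, 1 of 1760 bases in exon 22 of 22. PROZ, a plasma protein of the coagulation system, held 1 of 430 bases in exon 8 of 8. Transcription factor genes were also hosts of coding peaks whose centre was not CpG-rich, as in ETS1 and ALX1, and the share of such genes in either group was not tested. The 6 centred on exons other than the last were in CRYBG1, NCF1, ZBTB7A, PRPF6, DIP2C and TBKBP1. NCF1 has near-identical copies, 1 of which, NCF1B, also held a CpG-rich noncoding peak, so reads of these copies may have been shared and both peaks are uncertain.

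CpG-rich centres were also found where the host gene had no peak at its own start. Among coding peaks whose host lacked a start peak 11 of 25 were CpG-rich (95% interval 26.7–62.9%), and among those whose host had one 20 of 107 were (18.7%, 12.4–27.1). The 11 hosts were CRYBG1, NPFFR1, NCF1, UNC13A, OTP, APBB1IP, SIM2, KLHL31, EVX2, PROZ and PRDM8. The intervals of the 2 shares overlapped narrowly. For untranslated peaks the shares were 5 of 23 (21.7%, 9.66–41.9) and 10 of 230 (4.35%, 2.38–7.82), and for noncoding peaks 3 of 42 (7.14%) and 5 of 88 (5.68%). Distal peaks centred in an intron of a coding gene showed 3.75% (2.36–5.93) without and 2.51% (2.14–2.94) with a start peak. CpG islands can hold start sites that an annotation lacks, and whether any of these centres was an unannotated promoter was not tested.

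**Figure D3:**
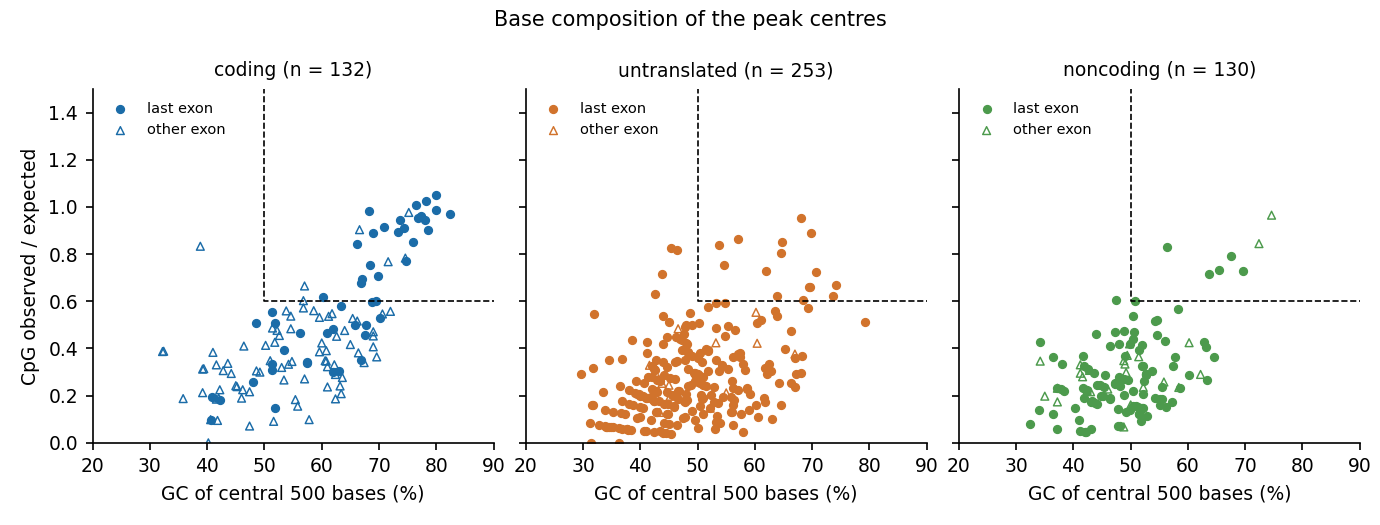
CpG observed/expected ratio against GC content (%) of the central 500 bases of each exon-centred distal peak, for coding, untranslated and noncoding exons, with last exons as filled circles and other exons as open triangles. Dashed lines enclose the CpG-rich centres, which number 31 of 132 in the coding panel, 15 of 253 in the untranslated panel and 8 of 130 in the noncoding panel.

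The untranslated group held the widest members. The SSU72 peak, 10060 bases at chr1:1557121-1567180, lay in the gene of a phosphatase of the RNA polymerase II tail. It was centred on the 3′ untranslated end of an annotated transcript of 2 exons, 20478 bases before the end of the gene. That midpoint was exonic in 1 of the 3 SSU72 transcripts over it. Untranslated sequence made up 36.7% of the peak. WNT4, a secreted Wnt ligand, had a peak of 7320 bases over its last exon with 37.4% in untranslated sequence. EHMT1, which encodes a methyltransferase of histone H3 lysine 9, had one of 7100 bases (26.4%) at the end of an annotated transcript of 10 exons. FGF9, a fibroblast growth factor, had one of 4300 bases, 56.7% of it untranslated and the remainder reaching past the gene's end. In contrast, the peaks of C15orf40 (6170 bases) and PGPEP1 (4770 bases) lay wholly in untranslated sequence, as did those of SERINC5 (2600 bases) and ZNF8 (2490 bases). ELP2, an Elongator subunit, held 2 peaks over 1 last exon of 6073 bases, of 4910 and 2130 bases, and PACSIN2, an endocytic adaptor, held one of 4080 bases with a CpG-rich centre. FRMD8 followed with a peak of 2140 bases that was 93.5% untranslated. All 11 of these genes had a peak at a start site. In 174 of the 253 peaks at least 90% of the bases were untranslated exon sequence.

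The 9 peaks centred on 5′ untranslated exons, named after their values were seen, were in LITAF, PCGF3, RBFOX2, LCP1, EOLA2, ACTG2, PRKCD, FHL2 and MTLN. They lay on exons 2 to 4 at a median of 4524 bases from the nearest start site, and the exon measured a median of 130 bases. In 3 of the 9 the midpoint was exonic in every host transcript over it. The LITAF peak was the widest at 2710 bases and the MTLN peak the narrowest at 420. ACTG2, the smooth muscle gamma actin gene, was the only host of the 9 without a peak at a start site.

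Of the 130 noncoding peaks, 97 lay in noncoding genes, 87 of them annotated as long noncoding RNA (lncRNA), and 33 in noncoding transcripts of protein-coding genes, namely 18 retained introns and 15 transcripts with no defined coding sequence. Of these 33, 0 were in the transcript that the annotation marks as canonical. In 5 of them (15.2%) the midpoint was exonic in every host transcript over it. The widest of the 130 was in LINC01962 on chromosome 5, with 4870 bases and 3 AP1 sites. AMZ1 (4580 bases), CDC42EP3-AS1 (4420 bases) and the unnamed lncRNA genes ENSG00000286068 (4120 bases) and ENSG00000287198 (3050 bases) had small exons at the centre of wide peaks, and exon sequence made up 3.74% to 18.6% of these 4 peaks. CCDC26, a lncRNA locus near MYC on chromosome 8, held one of 3720 bases. A neighbouring peak of 2990 bases, 5391 bases from the nearest start site, lay wholly in the last exon of ENSG00000285108, and was the widest peak with at least 90% noncoding exon sequence. The other 5 widest of that kind were in NEAT1 (1580 bases), LINC00940 (1390 bases), ALG1L9P (1380 bases), ENSG00000257298 (1270 bases) and ENSG00000224404 (1020 bases), and all of them were wholly exonic.

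The 515 peaks lay in 455 host genes. A single member was found in 405 hosts, 2 in 43, 3 in 6 and 6 in 1. The host with 6 was NEAT1, the lncRNA that builds nuclear paraspeckles and is made from a single exon, here annotated with 22743 bases. Its 6 members measured 470, 1580, 890, 750, 490 and 750 bases from the 5′ end to the 3′ end of the gene and had their midpoints between 8582 and 17772 bases from its start, with gaps of 420 to 880 bases to the nearest peak. C15orf40 held 3 in an exon of 10876 bases, of 6170, 590 and 450 bases. RCN2, a calcium-binding protein of the endoplasmic reticulum, held 3 in its last exon (980, 610 and 530 bases), as did the kinase gene SBK1 (1030, 1020 and 830 bases) and the SUMO protease gene SENP1 (1780, 1860 and 760 bases). LONRF2 held a coding and 2 untranslated peaks, all centred on its last exon of 12618 bases. In PLEC, the cytoskeletal linker plectin, the 3 members were on separate exons, the coding ones on exons 11 and 25 of 32 and the untranslated one on exon 32. Such members are neighbours on 1 gene and do not count as independent observations of it.

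**Figure D4:**
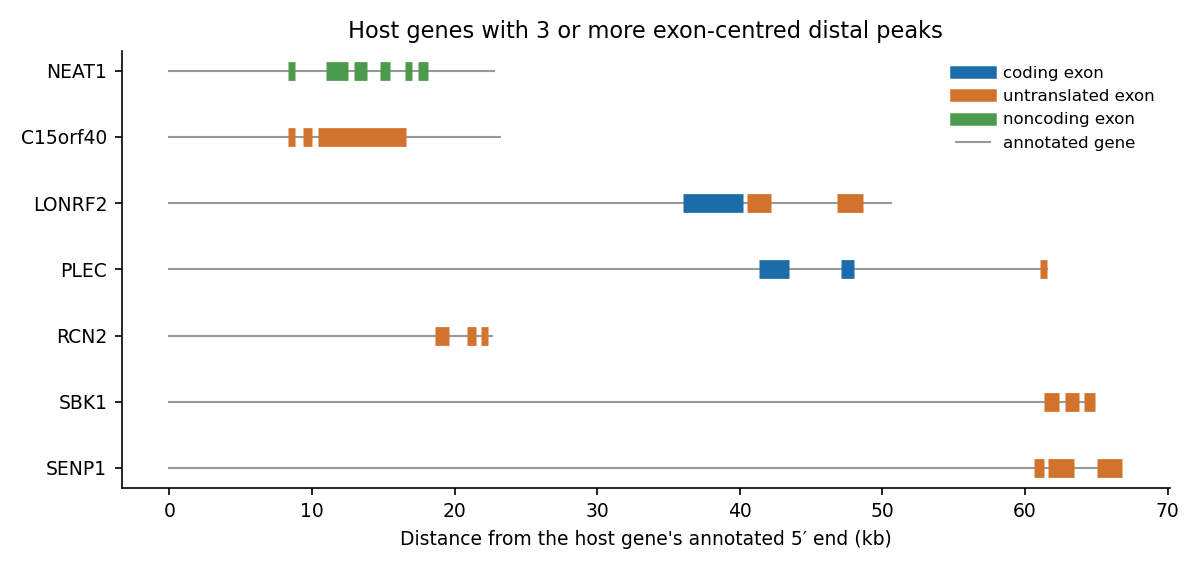
Positions of the exon-centred distal peaks in the 7 host genes with 3 or more, in kb from the annotated 5′ end of the gene, with blue, orange and green bars drawn to the width of peaks centred on coding, untranslated and noncoding exons and grey lines for the genes. NEAT1 carries 6 between 8582 and 17772 bases from its 5′ end, while those of RCN2, SBK1 and SENP1 lie at the 3′ end of the gene.

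Host genes usually had acetylated starts. Of the 364 protein-coding hosts 316 had a peak within 3 kb of a start site (86.8%, 83.0–89.9), against 63.4% of all 20015 protein-coding genes and 88.1% (86.7–89.3) of the 2472 protein-coding genes with an intron-centred distal peak. The exon-centred and intron-centred hosts therefore had overlapping intervals. The share was 80.8% (73.0–86.7) for coding hosts and 89.5% (84.7–92.9) for untranslated hosts. For hosts of noncoding peaks, coding genes included, it was 66.4% (57.6–74.2). Of the 91 hosts that were not protein-coding genes, 51 had such a peak (56.0%, 45.8–65.8), beside 27.7% of all lncRNA genes. Those 91 include pseudogenes, and the share for lncRNA genes with an intron-centred distal peak was not computed. A peak within 3 kb of a start site is not itself a member, since the rule removes it.

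The start site nearest to a member belonged to its host gene in 89 of 132 coding, 135 of 253 untranslated and 69 of 130 noncoding peaks. In the others the start site nearest to the peak's edges was annotated to another gene identifier, as at SSU72, SENP1 and FRMD8. Records with the host's symbol but another identifier counted as another gene, as at NCF1B, PPIEL and HLA-L. The median distance to the nearest start site was 7476 bases for coding, 6635 for untranslated and 7464 for noncoding peaks, against 10870 for intronic distal peaks. Another peak lay within 1 kb of 52 coding (39.4%), 122 untranslated (48.2%) and 64 noncoding peaks (49.2%), against 45.9% of all distal peaks, and these shares were near that background. More than 50 kb from any other peak were 14 coding (10.6%), 10 untranslated (3.95%) and 15 noncoding peaks (11.5%), against 10.04% of all distal peaks.

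At the limit of the rule, the members nearest to a start site were in DDX59 (3020 bases away), CCDC88A (3024) and ST3GAL6 (3029), and the exon-centred peaks just outside were in STAR (2961), LINC01910 (2971) and ENSG00000238273 (2978). The farthest were in CDH12, a neuronal cadherin, at 130605 bases, in the sodium leak channel gene NALCN at 109980 and in MYO16 at 105995. CDH12 and MYO16 had no peak at a start site, and the nearest other peak to the NALCN member lay 349640 bases away.

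Few genes of the lists examined held a member. Of the 23 melanocyte lineage genes 2 did (8.70%), beside 1.82% of all protein-coding genes. EDNRB, the endothelin receptor of melanoblasts, had a peak of 3000 bases at chr13:77895281-77898280, 86.7% of it in the 3′ untranslated region, with 38.6% GC in its centre. TFAP2A, a neural crest transcription factor, had a peak of 880 bases on exon 7 of 7, with 66.8% GC and a CpG-rich centre. NEDD9, a docking protein of focal adhesions, was the 1 of 16 genes named in the study that held members. It had an untranslated peak of 850 bases that lay wholly in its last exon and a noncoding one of 560 bases. The midpoint of the noncoding peak was exonic in 1 of the 7 NEDD9 transcripts over it. All 16 of those genes had a peak at a start site.

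Of 516 protein-coding ZNF genes, most of which encode DNA-binding proteins with zinc finger arrays, 428 had a start peak and 6 held a member (1.16%), namely ZNF8, ZNF106 and ZNF703 in untranslated, ZNF316 and ZNF385A in coding and ZNF709 in noncoding exons. ZNF316 and ZNF385A had CpG-rich coding centres. Among 44 collagen genes COL6A3 was the host of 1, a peak of 1090 bases that was 15.1% coding. Of the 280 genes with a coding exon longer than 3 kb 8 held members (2.86%), and in 5 of them a member was centred on coding sequence. These were AKAP12, APC2, PLEC, MAST4 and BSN. BSN, the presynaptic scaffold bassoon, held a peak of 460 bases that was wholly coding, in an exon of 6654 bases. MAST4 held 1 of 1780 bases in its last exon and 1 of 560 bases on exon 17. MPRIP and SHROOM3 held untranslated peaks of 760 and 580 bases, and TACC2 a noncoding peak of 420 bases. Long genes and long exons offer more sequence to a midpoint, and these counts were not adjusted for length.

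The full ATF/CREB site TGACGTCA, searched on both strands like the other motifs, was found in 1 of the 515 members (0.194%, 0.0343–1.09), against 0.981% of all distal peaks. That member was the FGF9 peak, and its site lay 589 bases from the midpoint, past the end of the gene. The central 400 bases of the 515 peaks held none, which allows a share of up to 0.740%, and 36 of all distal peaks held one there (0.302%). The flexible form TGANNTCA, which includes the full site, was present in 34 of 132 coding (25.8%, 19.1–33.8), 108 of 253 untranslated (42.7%, 36.8–48.9) and 54 of 130 noncoding peaks (41.5%, 33.4–50.1), against 45.6% of all distal peaks. The coding interval lay below that share, and the untranslated and noncoding intervals included it. Within the ranges of GC content used for the AP1 site below, the central 400 bases of coding peaks held TGANNTCA in 4 of 32 (12.5%, 4.97–28.1) beside 16.8% of coding windows under 50% GC, in 2 of 33 (6.06%, 1.68–19.6) beside 14.3% from 50% to under 60%, and in 7 of 67 (10.4%, 5.15–20.03) beside 7.75% at 60% or more. All 3 intervals included the share of the windows, and intronic distal peaks at 60% GC or more stood at 5.37% (4.04–7.11).

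The AP1 site TGAGTCA was present in 16 coding (12.1%, 7.60–18.8), 44 untranslated (17.4%, 13.2–22.5) and 17 noncoding peaks (13.1%, 8.33–19.95), against 17.5% of all distal peaks. The groups moved apart at the centre. In the central 400 bases 1 of 132 coding peaks held the site (0.758%, 0.134–4.17), against 21 of 253 untranslated (8.30%, 5.49–12.4), 7 of 130 noncoding (5.39%, 2.63–10.7) and 6.87% (6.43–7.33) of all distal peaks. Windows of the same length on untranslated sequence held it in 5.82% of cases, a share that the untranslated interval included. On coding sequence 5.42% of windows held it. The coding peak with the site was the IPO8 peak, 620 bases on exon 25 of 25 of this importin gene. Its site lay 126 bases from the midpoint in the intron. Of the 17 AP1 sites in coding peaks 1 lay in coding sequence, in PDZD7 and 567 bases from the midpoint. Of 48 sites in untranslated peaks 39 lay in untranslated sequence, and of 24 in noncoding peaks 14 lay in noncoding exons. A motif match is a description of letters and does not show that a factor was bound.

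GC content moved with this result, so the centres were divided by GC, a division chosen after the values were seen. Under 50% GC, 1 of 32 coding peaks held an AP1 site in the central 400 bases (3.13%, 0.554–15.7) beside 5.90% of coding windows. From 50% to under 60% it was 0 of 33 (upper limit 10.4%) beside 5.45%, and at 60% or more 0 of 67 (upper limit 5.42%) beside 2.97%. Each of these intervals included the share of the windows. With groups of this size an interval for 0 peaks would include it too. The division therefore cannot tell whether coding peaks fell short of coding windows of like GC. In untranslated peaks under 50% GC, 16 of 143 held the site (11.2%, 7.01–17.4) beside 5.85% of windows, and the interval lay above that share. At higher GC the untranslated shares were 4 of 70 (5.71%) beside 6.18%, and 1 of 40 (2.50%) beside 3.64%. Noncoding peaks held it in 2 of 72 (2.78%, 0.765–9.57) beside 6.97% under 50% GC, 3 of 45 (6.67%) beside 6.89% from 50% to under 60%, and 2 of 13 (15.4%, 4.33–42.2) beside 4.21% at 60% or more. The last of these intervals lay just above the share of the windows and rests on 13 peaks, and the first included it. Intronic distal peaks under 50% GC held the site in 7.65% (6.94–8.44) beside 6.04% of intronic windows.

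CATGTG, a form of E-box bound by the melanocyte regulator MITF, was present in 45 coding (34.1%, 26.6–42.5), 107 untranslated (42.3%) and 58 noncoding peaks (44.6%), against 44.4% of all distal peaks. In the central 400 bases it was found in 20.5% of coding, 16.6% (12.5–21.7) of untranslated and 25.4% of noncoding peaks, beside 20.3%, 22.1% and 24.7% of the windows of each class. Runs of TGA and TCA triplets, with over 4 in a row and at most 5 bases between them, were present in 6 coding (4.55%), 20 untranslated (7.91%) and 10 noncoding peaks (7.69%), against 8.15% of all distal peaks.

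**Figure D5:**
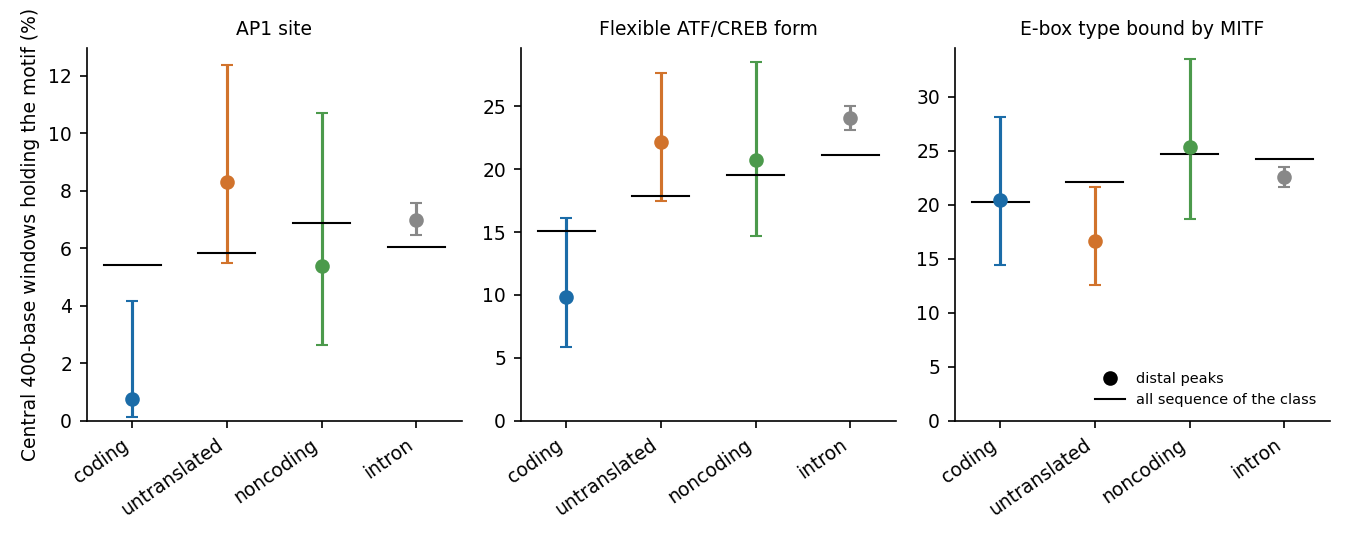
Percentage of central 400-base windows that hold the AP1 site, the flexible ATF/CREB form and the E-box form bound by MITF, in distal peaks centred on coding, untranslated and noncoding exons and introns (points, with 95% Wilson intervals), and in windows along all sequence of each class beyond 3 kb (black lines). The coding point for AP1 is 0.758% beside 5.42% of the windows, which had a lower median GC than the coding peak centres. The untranslated point is 8.30% beside 5.82%, a share that its interval (5.49–12.4) includes.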

How the data were processed

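H3K27ac ChIP and input libraries of SU-CCS-1 cells (3 of each) were sequenced by the authors, at a depth that the deposited list does not hold. Per the labels and methods, alignment to hg38 by the authors used BWA 0.7.10-r789, after which they removed duplicates and called broad peaks with MACS2 2.2.6 against input. They deposited 1 list with 4 columns (chromosome, start, end, name), whose values are positions and not signal. A locus without a peak may have fallen below the cutoff.

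Peaks were compared with GENCODE version 44 and hg38 (Python 3.11.15, numpy 2.4.6, pandas 2.3.3, scipy 1.17.1, figures with matplotlib 3.10.9), after the scripts were tested on simulated annotation and sequence. Genes shared by X and Y were counted once. Base composition was taken from the whole peak or the central 500 bases, motifs from the whole peak or the central 400. Sequence windows were placed on every 50th base beyond 3 kb of a start site. The midpoint base follows the half-open coordinates of the list. Repeat content was not analysed here.

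The members, gene lists and tests were chosen with earlier results of these data known. Named genes were the 8, 8 and 6 widest coding, untranslated and noncoding members, the 6 widest per class with at least 90% of the peak in exons of the class, hosts of 3 or more, holders of TGACGTCA, members at the extremes of distance and list genes, and exceptions are stated. A gene that the rule selects is not reported here. Alternatives covered the distance limit, the annotation, the definition of exon-centred and peak width.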

Additional observations from a re-analysis of the deposited data

How the results depend on the processing

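No paired analysis was possible because replicates have no column of their own in the merged list, and no replicate was left out for the same reason. Of 73 alternatives to 18 values, 47 stayed within 1.5 times a count or within the counting interval of a median or share. Why the other values changed was not tested. Those alternatives admit or drop peaks or hosts, or shorten the sequence searched.

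With a limit of 1 kb the members numbered 869 (213 coding, 402 untranslated, 254 noncoding) with a median GC of 51.2%, and with 5 kb the untranslated peaks numbered 163. With basic transcripts only, which also removes start sites, coding peaks numbered 260. Counting any exonic base gave 1191 members, 626 coding and 288 noncoding. When at least 50% of the peak had to be exonic, coding peaks numbered 67 with a median width of 600 bases. The widest 50% of all peaks left 176 members (43 coding, 92 untranslated, 41 noncoding), and protein-coding genes alone left 41 noncoding peaks. The share of members whose host had a start peak, 82.5%, was 88.3% for protein-coding hosts and 74.4% for the widest 50% of peaks. In the central 400 bases TGACGTCA was found in 0.0%, TGAGTCA in 5.63%, TGANNTCA in 18.6% and CATGTG in 19.8% of members, and in the widest 50% of peaks the last 3 were found in 26.7%, 60.2% and 73.9%. CpG-rich shares stayed within their intervals with the whole peak and with 55% GC.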
